A study of Mus musculus with 20 samples.

Results

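The genes described here are 7 candidates from mouse obesity and diabetes genetics, Zfp69, Tbc1d1, Pctp, Abcg1, Dpp4, Ide and Lepr, followed in the liver of New Zealand Obese (NZO) mice and 3 other inbred strains. They were chosen by name, as 7 of the 19938 genes that the array annotation names. A member was measured by the probe set (the group of array probes that report 1 transcript) whose symbol in the platform annotation was exactly its name. By this rule 6 of the 7 had a probe set, each of them exactly 1, so no second probe set could be set beside it. Zfp69 had none and is not analysed here. Lepr was too dim to be tested, which left 5 members among the 14190 tested genes.

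Liver RNA came from 20 male mice, 5 each of NZO/Hl (NZO), C3H, 129P2/OlaHsd (129P2) and C57/Bl6 (B6), with 1 array per animal. All were 6 weeks old, and all 4 strains had been on the same high-fat diet (45 kcal% fat) since they were weaned, at 21 days of age. No strain was on another diet, so a response to the diet cannot be told apart from a difference between strains. NZO is a polygenic model of obesity and diabetes. The strains differ over their whole genomes, so the effect of 1 allele cannot be told apart from that of others.

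The candidates act at different places in fat and glucose handling. Leptin, made by fat cells, signals through the leptin receptor Lepr to limit food intake, and mice that lack the receptor become obese and diabetic. Tbc1d1 is a GTPase-activating protein for Rab proteins that holds back glucose transporters until insulin or muscle contraction releases them, and a deletion in the lean SJL strain protects against diet-induced obesity. Pctp carries phosphatidylcholine between membranes, and Abcg1 exports sterols from cells. Dpp4 is the surface peptidase that cuts the incretin hormones, and Ide is the protease named for degrading insulin. Zfp69 is a zinc finger protein with a KRAB domain, which recruits a corepressor complex to DNA, and was mapped as a diabetes gene in crosses with NZO.

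Among the 5 tested candidates, Pctp and Tbc1d1 differed among the 4 strains (limma's moderated F-test, adjusted p = 0.00307 and 0.0065), and Abcg1, Dpp4 and Ide did not pass that test (adjusted p = 0.359, 0.324 and 0.585). Over all tested genes 17.0% passed it. Both genes that passed averaged highest in B6 and lowest in C3H. Against B6, NZO livers held less Pctp, at 0.65 of the B6 level, and that was the only candidate called in any comparison that included NZO (10.3% of all tested genes were called in NZO minus B6). A gene was called where limma's p-value, adjusted by the Benjamini-Hochberg method over all 14190 genes, was under 0.05. Values are log2 signals, so a difference of 1 is a doubling, and they rank samples for 1 gene but do not set the level of 1 gene against another.

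The sequence just before the start of each of these 2 genes is shown because they are the candidates whose mRNA differed among strains. The sequences are RefSeq's, from assembly GRCm38.p6, a B6 genome. The sequences of the other 3 strains were not used here. Each run is the 250 bases before an annotated start, read 5′ to 3′ on the gene's strand, with GGGCGG (or its reverse complement CCGCCC) and CCAAT (or ATTGG) in capitals. Pctp lies on the minus strand, with this stretch at chr11:90002895-90003144. Tbc1d1 lies on the plus strand and has 2 annotated starts, with the stretches at chr5:64160010-64160259 and chr5:64230107-64230356.
Pctp: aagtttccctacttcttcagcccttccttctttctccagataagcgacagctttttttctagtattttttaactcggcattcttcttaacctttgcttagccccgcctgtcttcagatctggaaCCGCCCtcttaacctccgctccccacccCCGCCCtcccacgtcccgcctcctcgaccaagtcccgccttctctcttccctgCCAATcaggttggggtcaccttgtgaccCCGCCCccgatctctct
Tbc1d1, upstream start: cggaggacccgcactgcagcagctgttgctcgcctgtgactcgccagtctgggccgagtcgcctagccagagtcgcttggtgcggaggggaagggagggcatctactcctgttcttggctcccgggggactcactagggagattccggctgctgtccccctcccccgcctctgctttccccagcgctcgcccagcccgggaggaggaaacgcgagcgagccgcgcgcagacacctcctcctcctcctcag
Tbc1d1, downstream start: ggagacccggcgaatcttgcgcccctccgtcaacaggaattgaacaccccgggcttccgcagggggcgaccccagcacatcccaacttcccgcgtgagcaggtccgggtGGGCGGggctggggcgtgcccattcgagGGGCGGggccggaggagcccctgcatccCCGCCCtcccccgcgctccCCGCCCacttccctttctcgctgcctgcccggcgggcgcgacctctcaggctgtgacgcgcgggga
The Pctp stretch held GGGCGG 3 times and CCAAT 1 time. The upstream Tbc1d1 stretch held neither, while the downstream one held GGGCGG 4 times and no CCAAT. Over 32851 stretches of the same length, 32.7% held GGGCGG and 33.8% held CCAAT on either strand, so that these letters are common before gene starts. A match describes the letters and shows no binding.

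Pctp is the phosphatidylcholine transfer protein, a lipid carrier with a START domain (a lipid-binding fold) that is abundant in liver. Its log2 values were 8.43, 8.37, 8.93, 8.78 and 9.34 in the 5 NZO livers, and 8.44, 8.89, 7.95, 8.35 and 8.37 in the C3H livers. In 129P2 livers they were 8.34, 8.52, 9.24, 8.81 and 8.31, and in B6 livers 9.13, 9.41, 9.67, 9.49 and 9.26. The 5 B6 livers lay above every C3H liver, whereas 1 NZO liver and 1 129P2 liver reached into the B6 range. Pctp averaged 8.77 ± 0.40 in NZO, 8.40 ± 0.34 in C3H, 8.64 ± 0.39 in 129P2 and 9.39 ± 0.21 in B6 (SD, n = 5 each), and the B6 livers had the smallest spread.

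Pctp was called lower in each of the other 3 strains than in B6, which was so for 0.973% of all tested genes. The difference was -0.62 ± 0.19 for NZO minus B6 (SE; 95% interval -1.01 to -0.23; limma adjusted p = 0.0368), -0.99 ± 0.19 for C3H minus B6 (adjusted p = 0.00147) and -0.75 ± 0.19 for 129P2 minus B6 (adjusted p = 0.0166). These 3 comparisons share the same 5 B6 livers. Pctp in C3H was 0.50 of the B6 level, and only 0.578% of the tested genes differed by more than that between C3H and B6. NZO did not pass the test against C3H (0.37 ± 0.19, adjusted p = 0.355) or against 129P2 (0.12 ± 0.19, adjusted p = 0.806), nor did C3H against 129P2 (-0.24 ± 0.19, adjusted p = 0.584). The 95% intervals of these comparisons between the other strains were wide, as the SE of 0.19 shows against a median SE of 0.0914 over all tested genes.

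The 3 calls against B6 were not equally firm. The call in C3H held in all 31 refits (11 other settings, and each of the 20 livers left out once). The call in 129P2 was lost without 129P2 replicate 5 (adjusted p = 0.0553) and with the spread of each array as a covariate (-0.63, adjusted p = 0.0917). The call in NZO was lost in 7 of the 20 fits that left out 1 liver: without NZO replicate 1, 2, 3 or 4 (adjusted p = 0.0674, 0.119, 0.0509 and 0.0616) and without B6 replicate 2, 3 or 4 (adjusted p = 0.0562, 0.0987 and 0.0858). It was also lost in 5 of the 11 other settings, and so held in 6 of them. Over the fits without 1 liver the difference between NZO and B6 stayed between -0.77 and -0.52.

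Tbc1d1 is the Rab GTPase-activating protein best known from skeletal muscle, where it restrains the glucose transporter GLUT4. In NZO livers its log2 values were 7.55, 7.34, 7.45, 7.45 and 7.53, and in C3H livers 7.28, 7.57, 7.11, 7.39 and 7.30. In 129P2 livers they were 7.76, 7.65, 7.65, 7.66 and 7.65, and in B6 livers 7.52, 7.60, 7.93, 7.85 and 7.55. All 5 NZO and all 5 C3H livers lay below the lowest 129P2 liver, while the NZO and C3H livers overlapped each other and the B6 livers. The means were 7.47 ± 0.086 in NZO, 7.33 ± 0.17 in C3H, 7.67 ± 0.047 in 129P2 and 7.69 ± 0.19 in B6 (SD, n = 5 each), so the spread in 129P2 was the smallest.

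C3H livers were called lower in Tbc1d1 than B6 (-0.36 ± 0.084, limma adjusted p = 0.0083) and lower than 129P2 (-0.34 ± 0.084, adjusted p = 0.0150). The first of these calls was ended by adding array spread to the model (-0.25, adjusted p = 0.0739). The second was lost without C3H replicate 3, which held the lowest value (-0.29, adjusted p = 0.0516), and without the 3 arrays of narrowest spread (-0.30, adjusted p = 0.0660). NZO missed the threshold against B6 (-0.23 ± 0.084, 95% interval -0.40 to -0.05, adjusted p = 0.0927), against C3H (0.14 ± 0.084, adjusted p = 0.5001) and against 129P2 (-0.21 ± 0.084, adjusted p = 0.146), although NZO and 129P2 livers did not overlap. With array spread as a covariate the difference between NZO and 129P2 passed (-0.22, adjusted p = 0.0384). The difference between 129P2 and B6 was -0.017 ± 0.084 (95% interval -0.19 to 0.16, adjusted p = 0.937).

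**Figure D1:**
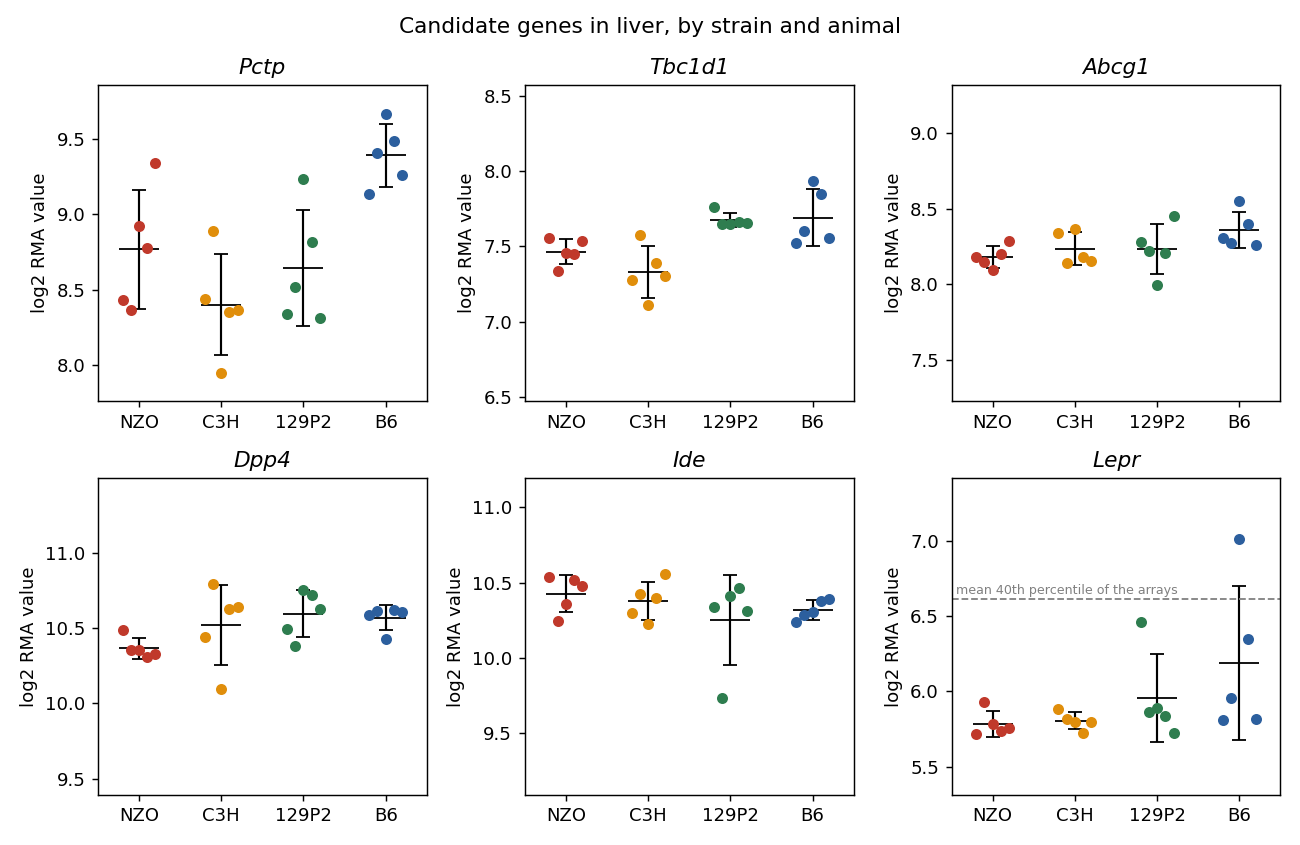
Log2 signal of the 6 measured candidates in each of the 20 livers, by strain, with the mean and SD as bars (n = 5 each); every panel spans the same number of log2 units. Pctp was highest in B6, the NZO and C3H livers lay below the 129P2 livers in Tbc1d1, and all but 1 Lepr value lay below the dashed line, the mean over arrays of the 40th percentile of all probe sets.

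Abcg1 is a half-transporter that loads cholesterol and oxysterols onto high-density lipoprotein, mostly in macrophages and other cells that take up sterol. Its log2 values were 8.18, 8.15, 8.09, 8.20 and 8.29 in NZO livers, and 8.34, 8.14, 8.37, 8.18 and 8.15 in C3H livers. In 129P2 livers they were 8.28, 8.22, 7.99, 8.21 and 8.45, and in B6 livers 8.31, 8.27, 8.55, 8.40 and 8.26. All 4 strains overlapped, and the strain means of 8.18 in NZO, 8.24 in C3H, 8.23 in 129P2 and 8.36 in B6 spanned 0.18. No comparison passed, the widest being NZO minus B6 at -0.18 ± 0.080 (95% interval -0.34 to -0.010, limma adjusted p = 0.172). For NZO minus C3H the interval was -0.22 to 0.11.

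Dpp4 is a serine peptidase of the hepatocyte's bile canalicular membrane that also circulates in plasma. Its log2 values were 10.48, 10.36, 10.35, 10.31 and 10.33 in NZO livers, and 10.44, 10.79, 10.10, 10.63 and 10.64 in C3H livers. In 129P2 livers they were 10.50, 10.38, 10.75, 10.72 and 10.62, and in B6 livers 10.58, 10.61, 10.42, 10.62 and 10.61. NZO averaged lowest, at 10.37 ± 0.069, against 10.52 ± 0.27 in C3H, 10.59 ± 0.16 in 129P2 and 10.57 ± 0.082 in B6 (SD, n = 5 each). NZO overlapped with each of them. None of these differences passed: -0.20 ± 0.10 for NZO minus B6 (limma adjusted p = 0.227), -0.15 ± 0.10 for NZO minus C3H (adjusted p = 0.554) and -0.23 ± 0.10 for NZO minus 129P2 (adjusted p = 0.214), comparisons that share the NZO livers. With arrays weighted by quality NZO was called lower than B6 (-0.24, adjusted p = 0.0307) and lower than 129P2 (-0.30, adjusted p = 0.00986), and the call against 129P2 was also made without the 3 arrays of narrowest spread (-0.28, adjusted p = 0.0414). Array weights raised the calls over all 14190 genes too, to 3165 in NZO minus B6 (1457 without weights) and to 2102 in NZO minus 129P2 (1263 without weights).

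Ide is a zinc metalloprotease that degrades insulin, glucagon and other small peptides and is abundant in liver. Its log2 values were 10.54, 10.24, 10.36, 10.52 and 10.48 in NZO livers, and 10.30, 10.42, 10.23, 10.40 and 10.55 in C3H livers. In 129P2 livers they were 10.34, 9.73, 10.41, 10.47 and 10.31, and in B6 livers 10.24, 10.29, 10.30, 10.38 and 10.39. Every strain overlapped with every other, and 1 129P2 liver stood below all the rest. No comparison passed, with NZO minus B6 at 0.11 ± 0.11 (limma adjusted p = 0.556), NZO minus C3H at 0.047 ± 0.11 (adjusted p = 0.922) and NZO minus 129P2 at 0.17 ± 0.11 (adjusted p = 0.418). The interval for NZO minus B6 ran from -0.12 to 0.33.

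Lepr, the leptin receptor, does most of its known work in the hypothalamus. Its probe set lay below the array's own 40th percentile over all probe sets, a level called dim here, in 19 of the 20 livers. The log2 values were 5.72, 5.93, 5.78, 5.74 and 5.75 in NZO, and 5.88, 5.82, 5.80, 5.72 and 5.80 in C3H. In 129P2 they were 6.46, 5.86, 5.89, 5.84 and 5.73, and in B6 5.81, 5.95, 7.01, 6.35 and 5.82. Only B6 replicate 3 rose above the percentile, and values below it have no reliable order, so no fold is given. One probe set for the whole gene does not separate the receptor's splice forms. When all named genes were fitted without the filter, no Lepr comparison passed (limma adjusted p = 0.149 for NZO minus B6, 0.985 for NZO minus C3H and 0.719 for NZO minus 129P2).

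The counts of candidates called are read against the whole array. In NZO minus B6, 1 of the 5 tested candidates was called, against 10.3% of all tested genes (6.64% called lower). In NZO minus C3H the count was 0 of 5, where 6.60% of genes were called and 16.1% had an unadjusted p under 0.05. In NZO minus 129P2 it was also 0 of 5, against 8.90% called and 19.9% with an unadjusted p under 0.05. In C3H minus B6, 2 of 5 were called, both lower, against 8.05% of genes (5.34% lower). In 129P2 minus B6, 1 of 5 was called, lower, against 6.19% (4.08% lower), and in C3H minus 129P2, 1 of 5, lower, against 5.03% (2.78% lower). With only 5 genes tested, these counts do not set the candidates apart. Groups that did not overlap were seen for Tbc1d1 in NZO minus 129P2 and in C3H minus 129P2, where 7.95% and 5.40% of genes did not overlap, and for Pctp in C3H minus B6, where 8.81% did not. The median difference over all genes was within 0.01 of 0 in every comparison.

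**Figure D2:**
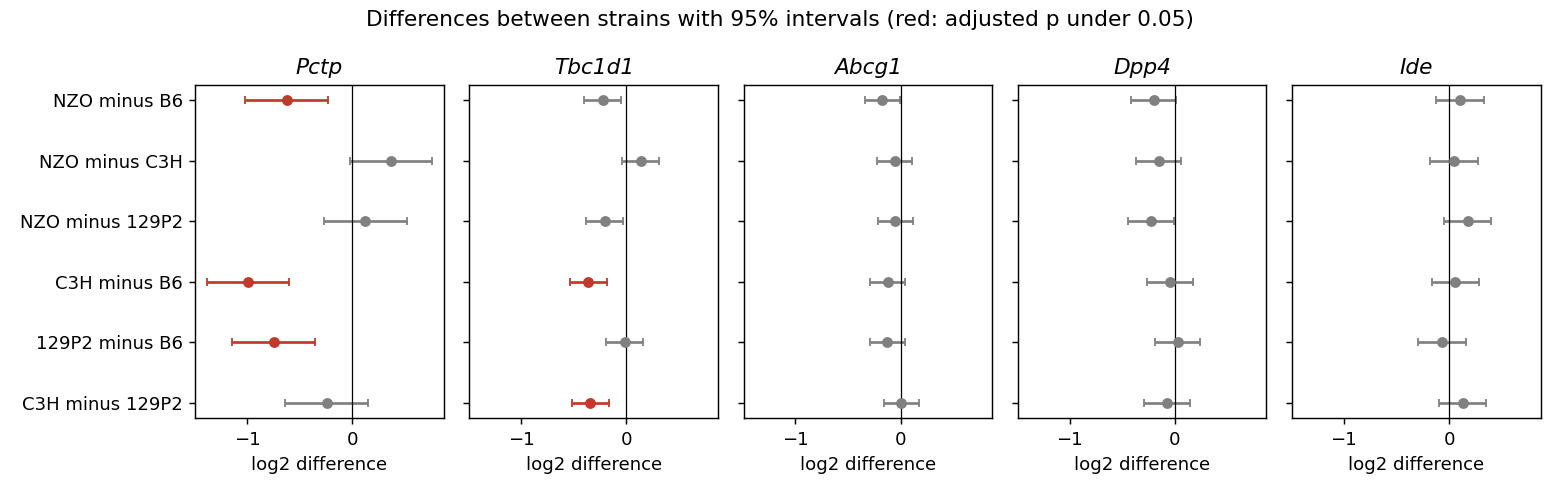
Log2 differences between strains for the 5 tested candidates (points) with 95% intervals (lines), first-named strain minus second, in red where the adjusted p was under 0.05. Pctp was called in the 3 comparisons with B6 and Tbc1d1 in C3H minus B6 and C3H minus 129P2, and for Abcg1, Dpp4 and Ide no interval was called.

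The candidates' partner genes were counted in lists tied to each of them by known role. The lists were chosen with earlier results of these data known, so the counts describe them and test nothing. The sterol list, for Abcg1, which also takes in bile salt and phospholipid exporters and Srebf1, held the most calls. Of its 17 tested genes, 6 were called lower in NZO than in B6, 2 lower than in C3H and 7 lower than in 129P2, with none higher, where 6.64%, 3.09% and 4.61% of all tested genes were called lower in those comparisons. The median differences of the list were -0.19, -0.10 and -0.20 where the median of all genes was near 0. Scarb1, the liver's receptor for high-density lipoprotein, ranged from 10.42 to 10.70 in NZO, against 11.01 to 11.45 in C3H, 11.11 to 11.66 in 129P2 and 11.04 to 11.33 in B6. Every NZO liver lay below every other liver. The differences were -0.69 ± 0.10 for NZO minus B6, -0.73 ± 0.10 for NZO minus C3H and -0.93 ± 0.10 for NZO minus 129P2 (limma adjusted p = 9.53e-05, 4.62e-05 and 1.75e-06).

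Abcb11, the bile salt export pump, showed the same separation, with medians of 11.58 in NZO, 12.25 in C3H, 12.53 in 129P2 and 12.27 in B6, and a highest NZO liver of 11.95. It was called lower in all 3 comparisons, at -0.65 ± 0.11 for NZO minus B6, -0.63 ± 0.11 for NZO minus C3H and -0.87 ± 0.11 for NZO minus 129P2 (limma adjusted p = 0.000245, 0.000331 and 6.26e-06). Abcg5 and Abcg8, which together form the sterol transporter into bile, were lower in NZO than in 129P2 (-0.9997 ± 0.14 and -1.09 ± 0.13, adjusted p = 4.59e-05 and 7.38e-06) and than in B6 (-0.76 ± 0.14 and -0.63 ± 0.13, adjusted p = 0.000963 and 0.00328). They were not called between NZO and C3H (adjusted p = 0.732 and 0.748). Srebf1, the transcription factor that drives fatty acid synthesis, was lower in NZO than in B6 (-1.01 ± 0.12, adjusted p = 3.35e-06), with a smaller gap to 129P2 (-0.51 ± 0.12, adjusted p = 0.00724). It was also called lower than in B6 in C3H (-0.66) and in 129P2 (-0.51), the latter in 30 of 31 refits. Abcb4, which moves phosphatidylcholine into bile, was called lower in NZO than in B6 (-0.45 ± 0.12, adjusted p = 0.0179), as in 28 of 31 refits. Its call against 129P2 (-0.39 ± 0.12, adjusted p = 0.0455) held in only 14 of 31. Abca1, the other main sterol exporter, was called in none of the 3 comparisons, at -0.062 ± 0.10, 0.046 ± 0.10 and 0.078 ± 0.10 for NZO minus B6, minus C3H and minus 129P2 (adjusted p = 0.731, 0.915 and 0.765).

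Of the 16 tested genes of Rab-controlled vesicle and glucose transport, tied to Tbc1d1, 2 were called lower in NZO than in B6, 2 lower than in C3H and 1 lower than in 129P2, and none higher. In those comparisons 6.64%, 3.09% and 4.61% of all tested genes were called lower. Sort1, the sortilin receptor of vesicle sorting, ranged from 8.22 to 8.75 in NZO, against 8.58 to 9.20 in C3H, 8.71 to 9.26 in 129P2 and 8.52 to 9.32 in B6. It was called lower in NZO in all 3 comparisons (NZO minus B6 -0.67 ± 0.14, NZO minus C3H -0.63 ± 0.14, NZO minus 129P2 -0.67 ± 0.14; limma adjusted p = 0.00332, 0.00743 and 0.00375). NZO replicate 3, at 8.75, overlapped with the lowest livers of the other strains. Slc2a2, the glucose transporter of hepatocytes, was lower in NZO than in C3H (-0.56 ± 0.12, adjusted p = 0.00447), and Stx4a, a membrane fusion protein, was called lower than in B6 (-0.30 ± 0.082, adjusted p = 0.0185), in 26 of the 31 refits as well. Tbc1d4, the closest relative of Tbc1d1, was dim in 4 of 5 NZO livers and missed the threshold against B6 (-0.30 ± 0.10, adjusted p = 0.0568), C3H (adjusted p = 0.274) and 129P2 (adjusted p = 0.226).

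Of 18 tested genes with a START domain or a role in phosphatidylcholine metabolism, tied to Pctp, 2 were called lower in NZO than in B6, 0 of 18 in either direction against C3H, and 3 lower than in 129P2. The shares of all tested genes called were 10.3%, 6.60% and 8.90% (6.64%, 3.09% and 4.61% lower). Acot11, a START domain thioesterase, was lower in NZO than in 129P2 (-0.61 ± 0.076, limma adjusted p = 6.78e-06). It was also called higher in 129P2 than in B6 (0.47) and lower in C3H than in 129P2 (-0.68). Pemt, the liver enzyme that makes phosphatidylcholine by methylation, was lower in NZO than in 129P2 (-0.38 ± 0.084, adjusted p = 0.00442), and its call against B6 (-0.26 ± 0.084, adjusted p = 0.0455) held in 17 of 31 refits. Pcyt2, of phosphatidylethanolamine synthesis, was called lower in NZO than in B6 (-0.42 ± 0.12, adjusted p = 0.0271), a call that held in 25 of the 31 refits. Acot13, a thioesterase that binds the Pctp protein, was called in no NZO comparison (-0.22 ± 0.11 against B6, adjusted p = 0.227; -0.095 ± 0.11 against C3H, adjusted p = 0.798; -0.20 ± 0.11 against 129P2, adjusted p = 0.336).

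The genes of insulin signalling and insulin degradation, tied to Ide, moved both ways. Of 18 tested, NZO minus B6 gave 3 called higher and 4 called lower, NZO minus C3H gave 1 higher, and NZO minus 129P2 gave 2 higher and 1 lower. In either direction, 10.3%, 6.60% and 8.90% of all tested genes were called in these 3 comparisons. Igfbp1, a secreted binding protein that insulin represses, had log2 values of 8.05, 8.51, 7.63, 7.74 and 8.07 in NZO, against 8.87, 8.93, 11.62, 10.22 and 9.06 in B6. The NZO livers lay below all the B6 livers, and B6 replicates 3 and 4 stood far above the other B6 livers. The difference was -1.74 ± 0.35 (limma adjusted p = 0.00168). Pck1, the gluconeogenic enzyme, was called lower in NZO than in B6 (-0.80 ± 0.21, adjusted p = 0.0174), a call that held in 26 of 31 refits. Ctsd, a lysosomal protease, was also lower than in B6 (-0.44 ± 0.098, adjusted p = 0.00421). Pdia4 and Pdia3, which form disulfide bonds in the endoplasmic reticulum, were higher in NZO than in 129P2 (0.64 ± 0.099 and 0.45 ± 0.077, adjusted p = 0.000101 and 0.000319). Insr, the insulin receptor, was called in none of the 3 comparisons (adjusted p = 0.518 against B6, 0.955 against C3H and 0.948 against 129P2).

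Of 17 tested genes of leptin receptor signalling, tied to Lepr, NZO minus B6 gave 1 higher and 1 lower, with 0 of 17 against C3H, and 1 higher and 2 lower than in 129P2. The shares of all tested genes called were 10.3%, 6.60% and 8.90%. Stat3, the transcription factor that the receptor activates, was higher in NZO than in 129P2 (0.47 ± 0.12, limma adjusted p = 0.00963) and also called against B6 (0.36 ± 0.12, adjusted p = 0.0476), and the call against B6 held in 14 of 31 refits. Irs1, an adaptor shared with the insulin receptor, was called lower in NZO than in B6 (-0.50 ± 0.11, adjusted p = 0.00462), which was lost when the mean of its probe sets was taken (adjusted p = 0.134). Leprotl1, a relative of Leprot that affects how much receptor reaches the cell surface, was called lower in NZO than in 129P2 (-0.39 ± 0.11, adjusted p = 0.0346) and in 21 of 31 refits. Leprot, whose transcript shares its first exons with Lepr, was called in none of the 3 comparisons (0.00054 ± 0.12 against B6, adjusted p = 0.998), and Lep itself was dim in every liver.

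Among 13 tested peptidases and incretin receptors, tied to Dpp4, NZO minus B6 gave 1 higher and 1 lower, NZO minus C3H 1 higher and 2 lower, and NZO minus 129P2 1 higher. In these comparisons 10.3%, 6.60% and 8.90% of all tested genes were called. The gene called higher each time was Cav1, a membrane scaffold protein to which Dpp4 can bind, with ranges of 7.39 to 7.86 in NZO, 6.81 to 7.002 in C3H, 6.70 to 7.21 in 129P2 and 6.59 to 7.33 in B6. All NZO livers lay above all the others, with mean differences of 0.71 ± 0.12 from B6, 0.69 ± 0.12 from C3H and 0.70 ± 0.12 from 129P2 (limma adjusted p = 0.000328, 0.000491 and 0.000385). Mme, a membrane peptidase that also cuts peptide hormones, was dim in all 5 NZO and all 5 129P2 livers and was at least 3.35-fold lower in NZO than in B6 (adjusted p = 5.13e-11), the bound being the mean B6 level over the dim level of the NZO arrays. Ada, the adenosine deaminase that binds Dpp4 in humans, was called lower in NZO than in C3H (-0.24 ± 0.072, adjusted p = 0.0452), a call that held in 10 of 30 refits. Fap, the closest relative of Dpp4, was dim in every liver. Of 14 tested genes of the corepressor complex that KRAB proteins such as Zfp69 recruit, 1 was called lower in NZO than in B6 and 0 of 14 in the other 2 comparisons. Over all tested genes 10.3% were called against B6, 6.60% against C3H and 8.90% against 129P2. The gene called was Chd3, a chromatin remodeller (-0.47 ± 0.10, limma adjusted p = 0.0034). Chd3 was also called lower than in B6 in C3H (-0.54) and in 129P2 (-0.34), the latter in 16 of 31 refits. The median difference of this list was -0.14 in NZO minus B6, -0.15 in C3H minus B6 and -0.14 in 129P2 minus B6. Trim28, the corepressor itself, missed the threshold (-0.21 ± 0.085 against B6, adjusted p = 0.121; -0.017 ± 0.085 against C3H, adjusted p = 0.970; -0.24 ± 0.085 against 129P2, adjusted p = 0.0825).

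Of 17 tested genes among other mouse obesity and diabetes candidates, NZO minus B6 gave 2 higher and 2 lower, NZO minus C3H 1 lower and NZO minus 129P2 2 lower. The shares of all tested genes called were 10.3%, 6.60% and 8.90%. Nnt, the mitochondrial transhydrogenase that carries a known deletion in the C57BL/6J substrain, ranged from 9.66 to 9.94 in NZO, against 9.54 to 10.22 in C3H, 9.74 to 10.12 in 129P2 and 8.78 to 9.43 in B6. The B6 livers lay below all the others, and the label C57/Bl6 does not name a substrain. The difference was 0.68 ± 0.12 for NZO minus B6 (limma adjusted p = 0.000461), while NZO minus C3H and NZO minus 129P2 did not pass (adjusted p = 0.887 and 0.373). Ildr2, mapped as a diabetes modifier in obese mice, was called higher in NZO than in B6 (0.47 ± 0.12, adjusted p = 0.0141), as in 30 of 31 refits. It was also called higher in 129P2 than in B6 (0.73), and averaged 8.44 in 129P2 against 8.18 in NZO. Igfbp2, an insulin-like growth factor binding protein, was lower in NZO in all 3 comparisons, at -2.00 ± 0.18 for NZO minus B6 (adjusted p = 7.38e-08). Tsc2, a brake on mTOR signalling, was called lower than in B6 (-0.31 ± 0.097, adjusted p = 0.0414) and Ttc39a lower than in 129P2 (-0.35 ± 0.10, adjusted p = 0.0339), calls that held in 21 and 25 of 31 refits. Ifi202b, an interferon-induced candidate of NZO, was dim in 4 of 5 NZO livers and in all the others. Its single NZO value above the percentile was 7.34.

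**Figure D3:**
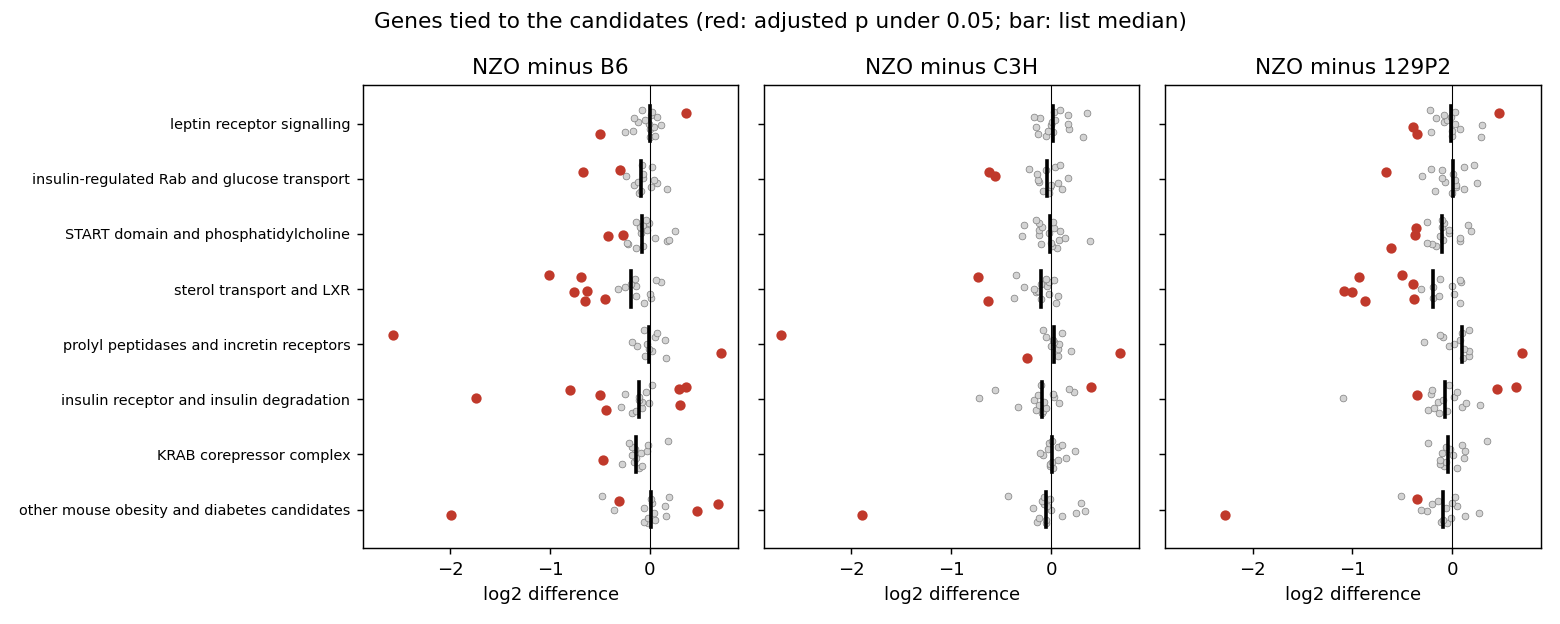
Log2 differences for the tested genes of the 8 lists, as NZO minus B6, minus C3H and minus 129P2 (1 point per gene, red where the adjusted p was under 0.05, thick bar the list's median). The sterol transport list has 6, 2 and 7 red points, all below 0, while most genes of the other lists were not called. In NZO minus B6 the KRAB corepressor list also lay mostly below 0, with 1 positive difference of 14 and a median of -0.14. Its medians in NZO minus C3H and NZO minus 129P2 were 0.012 and -0.041.

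The genes that flank each candidate on its chromosome were read as well, 3 tested genes on each side in the order of the annotation. Of these 42 neighbours, 8 were called in at least 1 comparison with NZO, against 17.2% of all tested genes, so the neighbourhoods as a whole stood near the background. Beside Abcg1 lay Glo1, the glyoxalase that detoxifies methylglyoxal, ranging from 11.15 to 11.65 in NZO, against 12.08 to 12.29 in C3H, 12.24 to 12.63 in 129P2 and 11.19 to 11.61 in B6. NZO and B6 shared a low level of Glo1, and C3H and 129P2 a high one, with -0.81 ± 0.097 for NZO minus C3H and -1.01 ± 0.097 for NZO minus 129P2 (limma adjusted p = 4.38e-06 and 1.51e-07). Tff3, a trefoil peptide of mucous epithelia and the next gene on the other side, averaged 8.13 ± 0.29 in NZO and 7.99 ± 0.16 in 129P2, against 11.34 ± 0.42 in C3H and 10.63 ± 0.68 in B6 (SD, n = 5 each). Glo1 and Tff3 thus split the strains in different ways, and Abcg1 between them did not pass between any strains.

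Beside Dpp4 lay Ifih1, a cytoplasmic sensor of viral RNA, higher in NZO than in C3H (0.53 ± 0.13, limma adjusted p = 0.00893) and, by more, than in 129P2 (0.73 ± 0.13, adjusted p = 0.000389). NZO did not pass against B6 (0.13 ± 0.13, adjusted p = 0.526), and Ifih1 was also called lower in 129P2 than in B6 (-0.60). Gca, a calcium-binding protein, was higher in NZO than in 129P2 (0.81 ± 0.12, adjusted p = 8.82e-05). It was also called higher in NZO than in C3H (0.42 ± 0.12, adjusted p = 0.0414), a call that held in 18 of 31 refits. Gca missed the threshold in NZO minus B6 (0.37 ± 0.12, adjusted p = 0.0554). Rbms1, an RNA-binding protein on the other side of Dpp4, was lower in NZO than in B6 (-0.45 ± 0.079, adjusted p = 0.000484), as against 129P2 (-0.31 ± 0.079, adjusted p = 0.0123). It was also called lower in C3H than in B6 (-0.38), and NZO minus C3H did not pass (-0.065 ± 0.079, adjusted p = 0.809). Pde4b, the phosphodiesterase gene next to Lepr, was lower in NZO than in B6 (-0.47 ± 0.11, adjusted p = 0.00576). It was also called lower in C3H than in B6 (-0.36), in 23 of 31 refits. Pde4b did not pass in NZO minus C3H or NZO minus 129P2 (adjusted p = 0.760 and 0.215). Pgm2, beside Tbc1d1, was called lower in NZO than in C3H (-0.33 ± 0.093, adjusted p = 0.0314), a call that held in 24 of 31 refits. Of the 6 tested neighbours of the missing Zfp69, only Zmpste24 was called (0.33 ± 0.10 for NZO minus 129P2, adjusted p = 0.0458), which held in 11 of 31 refits. None of the neighbours of Pctp or of Ide was called in a comparison with NZO.

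**Figure D4:**
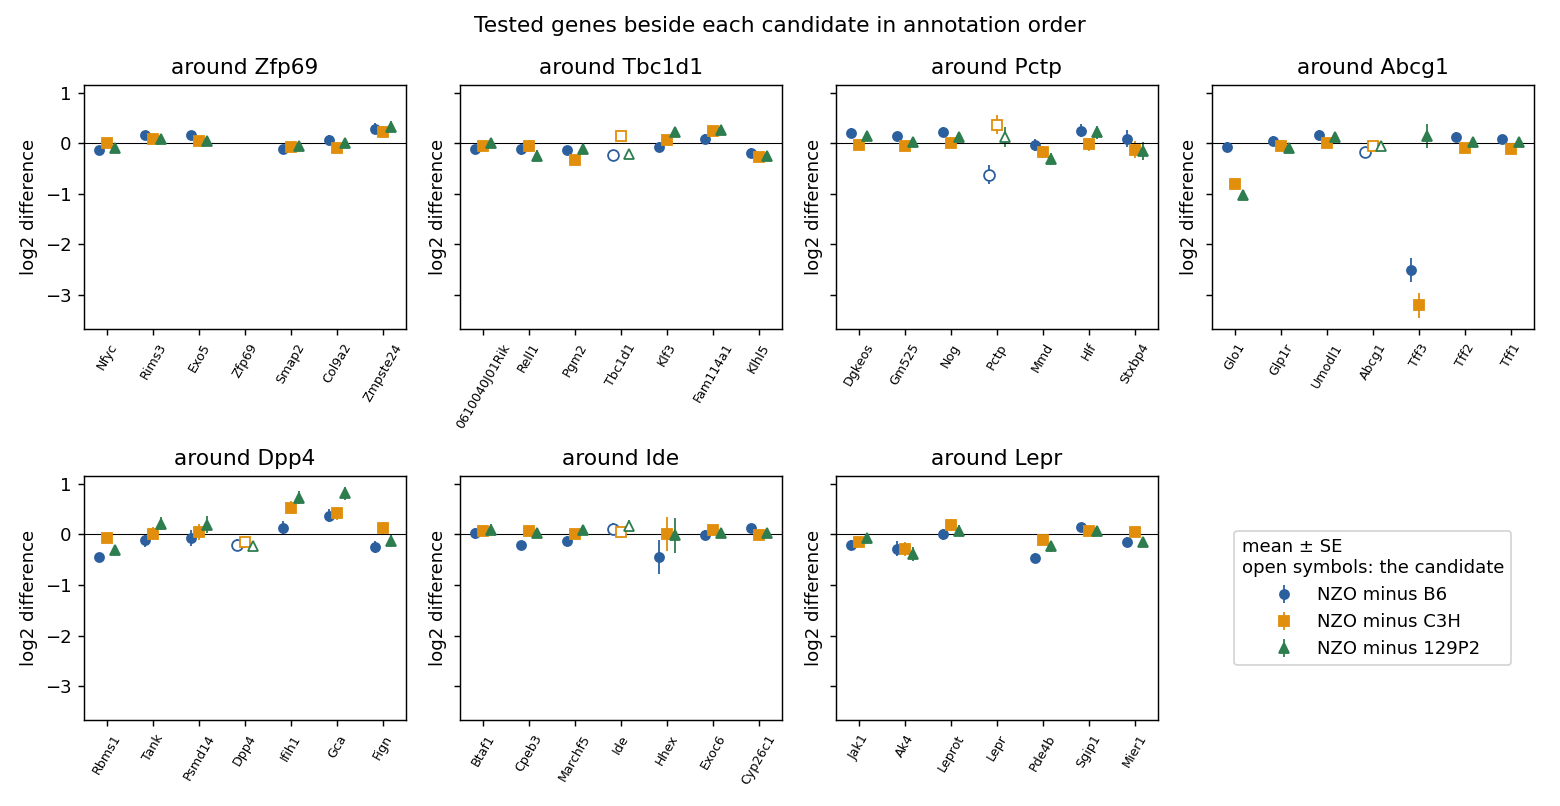
Log2 differences (mean ± SE) of the 3 tested genes on each side of each candidate, in gene order, with the candidate itself as open symbols; the axis gives order, not distance. Tff3 beside Abcg1 lies lowest, at -2.50 in NZO minus B6 and -3.21 in NZO minus C3H, while the neighbours of Pctp and Ide were uncalled in these 3 comparisons; Zfp69 has no probe set and Lepr was not tested, so neither has an open symbol.

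The genes whose pattern over the 20 livers was most like each candidate's are given as a description. For Tbc1d1 they were Flna, Arhgap18 and Ralgapa2 (Pearson's r of 0.90, 0.89 and 0.88 over 20 livers, and 0.80, 0.83 and 0.70 after each strain's mean was taken out). For Pctp they were Arsb, Krt18 and Anxa6, at 0.80 each over the livers but 0.39, 0.53 and 0.33 within strains, so that much of the likeness lay in the strain means. For Ide they were Itfg1, Cse1l and Plaa, at 0.92, 0.92 and 0.91, and for Dpp4 C2cd2, Rgn and Tango2, at 0.87, 0.85 and 0.84, hardly changed within strains. Abcg1 had weaker likenesses, with Zmat3, Pcolce and Cyba at 0.75, 0.75 and 0.74. All values come from the same 20 arrays and share their spread. The spread of an array, its interquartile range, ran with Ide (r = 0.72 within strains), Tbc1d1 (r = 0.60) and Dpp4 (r = 0.59) over the 20 arrays, and less with Pctp (r = 0.27). Among the candidates Tbc1d1 ran with Pctp at r = 0.63 over the livers and 0.52 within strains.

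Markers of the liver's cell types were read beside these differences. Of 10 hepatocyte markers 9 were measured, none was dim in all 5 livers of any strain, and their summed signal ranged from 16.8 to 17.0 (log2) across the livers. The summed signal of the 8 sinusoidal endothelial markers ranged from 11.37 to 11.85 in NZO, against 11.94 to 12.37 in C3H, 11.90 to 12.36 in 129P2 and 11.86 to 12.33 in B6. Of the 8, 5 were called lower in NZO than in B6, against 6.64% of all tested genes. The calls of Kdr and Oit3 held in all 31 refits, and those of Clec4g, Dnase1l3 and Pecam1 in 29, 27 and 26. The summed signal of the stellate cell markers ranged from 11.38 to 11.93 in NZO, against 12.03 to 12.19 in C3H, 11.96 to 12.31 in 129P2 and 11.78 to 12.67 in B6. Every NZO liver lay below every other liver in the endothelial list, while in the stellate list the NZO livers lay below all C3H and 129P2 livers and overlapped with B6. Sums of the 8 Kupffer cell markers ranged from 11.59 to 12.40 in NZO and from 11.58 to 11.92 in C3H. In 129P2 they ranged from 11.77 to 12.86, and in B6 from 11.94 to 12.48. Of these 8, 1 was called lower in NZO than in B6. The part of these marker differences in the differences described here was not tested. In whole liver, fewer cells of a type and less RNA per cell cannot be told apart. Arrays of 1 strain correlated at a median of 0.985 and arrays of different strains at 0.979, and the interquartile range of an array ran from 2.17 to 2.50 and averaged 2.33 in NZO, 2.31 in C3H, 2.32 in 129P2 and 2.43 in B6.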

How the data were processed

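The submitters' processing notes name Affymetrix Expression Console and RMA (robust multi-array average), without versions, for the log2 values the authors deposited, which were used unchanged. RMA as a method corrects background, quantile-normalizes the arrays and summarises probes, which compresses differences of dim genes. The deposited values were not equal in distribution between arrays. Array medians ran from 6.94 to 7.10 and interquartile ranges from 2.17 to 2.50. The number of arrays, 5 per strain, limits the precision. Per the labels' protocols, 150 ng of RNA with an integrity number above 8 was used.

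Of 35556 probe sets, 21789 had 1 gene symbol; for genes with several, the one of highest mean was taken. Genes with at least 5 arrays above their own 40th percentile were tested. One model with a mean per strain was fitted with limma 3.58.1 in R 4.3.3 (data.table, version 1.17.8; empirical Bayes with an intensity trend, 16 residual and 6.37 prior degrees of freedom, no covariate), with adjustment over 14190 genes. No genome build is stated for the series, so GRCm38.p6 gave only names, gene order and the printed sequences. Plots were made in Python 3.11.15 (matplotlib 3.10.9).

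The members and lists were chosen with earlier results of these data known. Named were all members, up to 6 called genes per list in the NZO comparisons (largest difference first) with the best known partner of each member, called neighbours, and the 3 genes most like each tested member; Ifi202b and Lep were added after their values were seen. One gene that this rule names is not reported here. Labels give no replicate numbers, litters or cages, so livers are numbered in the order of the series. Each p-value sets a difference of means against the spread among livers, pooled over the strains and moderated over all genes. It treats the livers as independent, which the labels do not show. Alternatives were the dim filter, scaling, moderation, weights, array spread, the samples fitted, and leaving out livers. The fit was tested on simulated data in which 200 of 14190 genes were changed in NZO. Over the 3 NZO comparisons it recovered 12 to 16% of simulated differences of 0.25, and 72 to 78% of those of 0.5. Most simulated differences of 0.25 were thus missed. Of 153 to 155 calls, 9 to 12 were false.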

Additional observations from a re-analysis of the deposited data

Results flagged for a closer look

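Of 24 sets of 5 livers (6 measured candidates in 4 strains), 5 held 1 value far from the other 4 by Dixon's test at the 95% level, where chance gives about 1 in 20. In Tbc1d1 it was 129P2 replicate 1, the highest of its strain at 7.76 where the next liver had 7.66, a small gap beside the other 4 livers, which lay closer still. In Dpp4 it was NZO replicate 1, the highest at 10.48 against 10.36 in the next, and B6 replicate 3, the lowest at 10.42 against 10.58 in the next. In Ide it was 129P2 replicate 2, the lowest at 9.73 against 10.31 in the next, on an array that was also among the 3 of narrowest spread. In Lepr it was 129P2 replicate 1, the highest at 6.46 against 5.89 in the next; all 5 values of that strain were dim and have no reliable order, so this flag says nothing of Lepr.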

How the results depend on the processing

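Every array came from a separate animal, and the labels give no pairs or blocks between strains, so no paired analysis was made. Each of the 5 tested candidates was refitted under 11 other settings and with each of the 20 livers left out. Leaving out the 3 arrays of narrowest spread (C3H replicate 3, 129P2 replicate 2 and NZO replicate 2) was an alternative chosen after seeing the data. Because each member has 1 probe set, no other probe set was there to try, and the mean of probe sets left the members' own values as they were. Of the calls, that of Pctp in C3H minus B6 held throughout.

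The count in NZO minus B6 became 0 with quantile normalization, robust moderation, array spread as covariate and without the 3 narrowest arrays, with Pctp at -0.55 (adjusted p = 0.0704), -0.62 (0.0535), -0.52 (0.131) and -0.52 (0.0927); with array weights Pctp was at -0.46 (adjusted p = 0.0593) while Dpp4 was called. The count in NZO minus 129P2 became 1 with array weights, array spread as covariate and without the narrowest arrays, where 2102, 1928 and 1196 of all genes were called, against 1263 in the fit reported. With array spread as covariate it became 1 in C3H minus B6 and 0 in 129P2 minus B6, and without the narrowest arrays 0 in C3H minus 129P2. Leaving out 1 liver gave counts of 0 to 1 in NZO minus B6, 129P2 minus B6 and C3H minus 129P2. The cause was not tested.

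Some uncalled differences changed sign. With array weights these were Tbc1d1 (0.017) and Ide (0.023) in 129P2 minus B6, and with array spread as covariate Tbc1d1 (0.089) and Ide (0.098) in 129P2 minus B6 and Dpp4 (0.087) in C3H minus B6. Dpp4 in C3H minus B6 was 0.0049 with quantile normalization and 0.058 without the narrowest arrays, where Abcg1 in C3H minus 129P2 was -0.030 and Ide in 129P2 minus B6 0.062; Dpp4 in 129P2 minus B6 was -0.018 with equal array medians. Leaving out 1 liver, the differences ranged from -0.060 to 0.043 (Tbc1d1), -0.015 to 0.079 (Dpp4) and -0.12 to 0.062 (Ide) in 129P2 minus B6, from -0.019 to 0.27 (Pctp) and -0.11 to 0.0047 (Abcg1) in NZO minus 129P2, from -0.12 to 0.058 (Dpp4) in C3H minus B6, and from -0.054 to 0.060 (Abcg1), -0.14 to 0.033 (Dpp4) and -0.0022 to 0.18 (Ide) in C3H minus 129P2.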
